A study of Mus musculus with 12 samples.

Results

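The comparison described here asked for which genes the effect of homozygous Mars2 R135W differs between liver and gastrocnemius, a calf muscle. It used 12 of the series' 12 poly(A) RNA-seq libraries, from 6 female C57BL/6N mice fed chow. Each mouse was taken to have given 1 liver and 1 gastrocnemius library, by the number in the library titles. Libraries of the same number also share age and genotype. WT animals 6 and 8 share both as well, so the labels do not settle the pairing. The wild-type (WT) mice were animals 6, 8 and 9, aged 9.0, 9.0 and 7.4 weeks, and the R135W/R135W mice were animals 5, 7 and 12, aged 9.0, 7.4 and 8.6 weeks. There were thus 4 groups of 3 libraries, liver WT, liver R135W, gastrocnemius WT and gastrocnemius R135W, with no other allele or treatment in the labels. The members of the comparison were all libraries, and no measured value chose them. For each gene the quantity tested was the log2 change from WT to R135W in liver minus that in gastrocnemius, called the difference between tissues below. A positive value means that R135W moved the gene further up, or less far down, in liver. Genes are called at an adjusted p under 0.05, from edgeR with Benjamini-Hochberg adjustment over all tested genes. With 3 animals of each genotype and no other statement in the labels on litters or cages, the p-values measure the spread between these animals. Gene positions are mm10 spans from first to last exon, introns included.

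Mars2 is the nuclear gene of the enzyme that charges the mitochondrial methionine tRNA, and the mitochondrial ribosome needs that tRNA to start each protein it makes. The title of the series names the type I interferon response as the outcome of Mars2 deficiency. Type I interferons signal through a receptor found on nearly every cell type and switch on a large set of interferon-stimulated genes, among them the transcription factor Irf7 and the antiviral Ifit and Oas families. Liver and muscle differ in the cells around their main cell type: liver holds many resident macrophages, the Kupffer cells, and skeletal muscle holds few.

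Total counts ran from 20751583 to 30460237 per library. A level in CPM is a gene's count over the scaled total of its own library, brought to a common size. A level in liver set beside one in muscle is relative to very different pools of RNA. Hepatocyte markers summed to 10.9 to 20.9 CPM in 5 gastrocnemius libraries and to 55.6 CPM in that of R135W animal 12, against 86180 to 90275 CPM in R135W liver and 106670 to 109080 CPM in WT liver. Every R135W liver was thus below every WT liver in these markers, and the part of this in the liver results was not tested. Albumin, Alb, stood at 29.5 CPM in that library and at 0.253 to 5.11 CPM in the other gastrocnemius libraries. The part of that library in the results was not tested beyond the fit without it, given with the stability of the calls. Mars2 (chr1:55237177-55240058, plus strand) itself was read at 2.24, 2.50 and 3.40 CPM in WT liver and at 2.6, 2.4 and 3.63 CPM in R135W liver. In gastrocnemius Mars2 stood at 12.8, 10.9 and 12.0 CPM in WT and 10.6, 9.49 and 8.88 CPM in R135W, and its difference between tissues was 0.39 (SE 0.27, adjusted p = 0.725). A missense change leaves the transcript in place, so these counts do not check the genotype labels.

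More genes were called for R135W in liver than in gastrocnemius, and few genes differed between the tissues by the test of the difference itself. In liver 457 of 13935 tested genes were called (3.28%), of which 384 rose (2.76%) and 73 fell (0.524%). In gastrocnemius 121 of 13826 were called (0.875%), of which 75 rose (0.542%) and 46 fell (0.333%). The difference between tissues was called for 17 of 15414 genes (0.110%): 13 had the higher effect in liver (0.0843%) and 4 the lower (0.0260%). All 17 were measured in both tissues, that is, at a mean of 1 CPM or more in at least 1 genotype group of each. An unadjusted p under 0.05 was reached by 1422 genes (9.23%), 797 higher in liver (5.17%) and 625 lower (4.05%). The size of the called differences ran from 0.97 to 2.30. The median SE over genes measured in both tissues was 0.191 for the difference, 0.153 for the liver effect and 0.0946 for the gastrocnemius effect.

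Most of the 17 genes moved in liver and gave no call in muscle. By the tests within each tissue, 14 were called in liver alone, 2 in gastrocnemius alone (Foxo1 and Tfcp2l1) and 1 in both with opposite sign (Slc7a8). None was called in both tissues with the same sign, and the 36 genes called in both with the same sign are thus not among them. For all 17 genes the liver minus gastrocnemius log2 difference of each animal did not overlap between genotypes, which held for 16.5% of all tested genes. The liver libraries were fully apart for 15 of the 17 (22.3% of all) and the gastrocnemius libraries for 7 of the 17 (15.4% of all). The 17 calls came from these same libraries, so these separations are no further support for them. The 301 genes that rose in liver and were tested in both tissues had a median effect of 1.03 in liver and 0.27 in gastrocnemius, and 252 of them had a positive value in muscle. The 68 genes that rose in gastrocnemius had medians of 0.75 in muscle and 0.90 in liver, with 61 of 68 positive in liver. The 55 that fell in liver had medians of -0.77 in liver and -0.11 in muscle, and the 43 that fell in gastrocnemius had medians of -0.66 in muscle and -0.12 in liver. Each of these sets was chosen by its call in 1 tissue, and that choice by itself enlarges the median in that tissue. The medians are thus no test of a difference between tissues. Over all tested genes the median effect was -0.0051 in liver and -0.0002 in gastrocnemius.

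**Figure D1:**
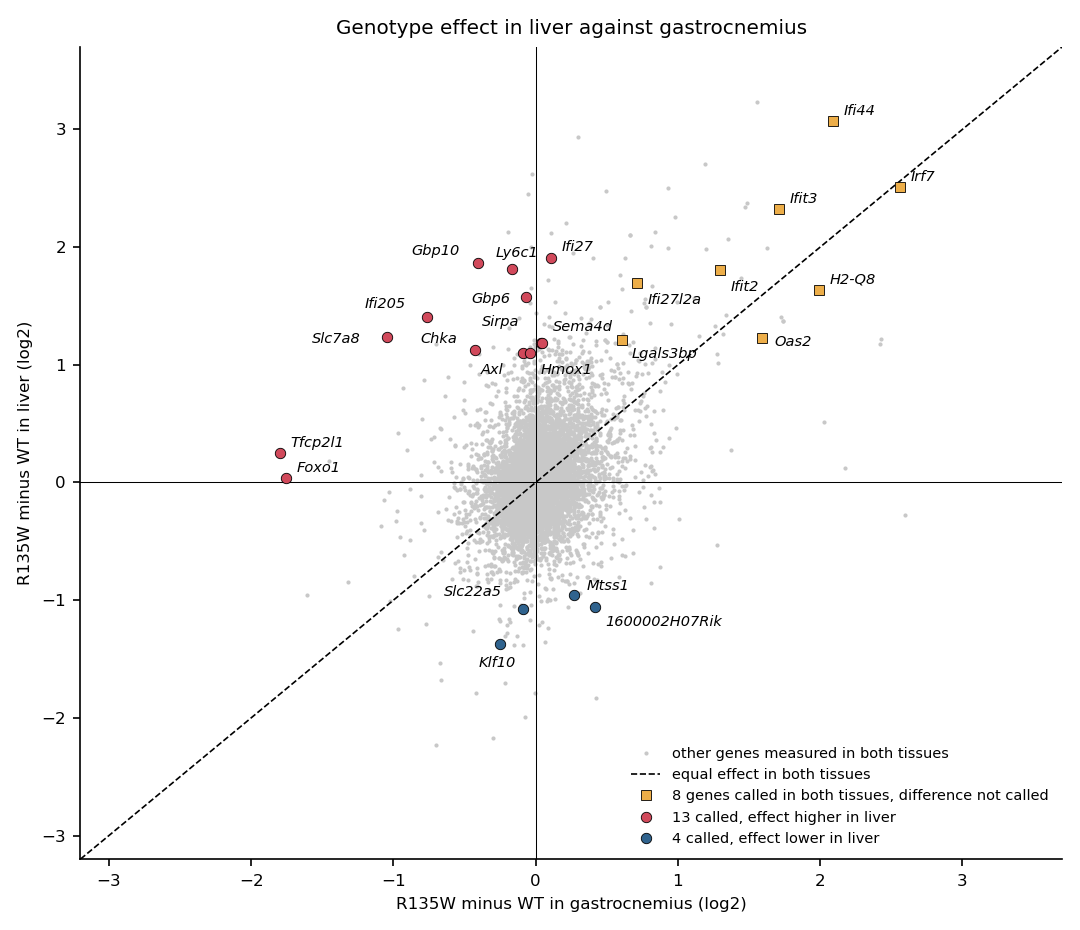
R135W effect in liver (vertical, log2) against gastrocnemius (horizontal, log2) for 11253 genes measured and tested in both tissues; the dashed line marks equal effects. Of the called genes, 13 lie above the line with the effect higher in liver and 4 below it, while Irf7, at 2.51 and 2.56, sits on the line.

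Among interferon-inducible genes, Ifi27 set the tissues furthest apart relative to its error. Ifi27 (chr12:103434189-103440245, plus strand) encodes a small membrane protein induced by type I interferon. In liver it was read at 96.4, 86.8 and 87.8 CPM in WT animals 6, 8 and 9 and at 342, 345 and 337 CPM in R135W animals 5, 7 and 12. In gastrocnemius the same animals gave 19, 18.5 and 19.7 CPM in WT and 20.9, 20.4 and 20.8 CPM in R135W. The liver groups lay far apart, and the muscle groups lay apart by a narrow margin at nearly one level. Ifi27 rose by 1.91 in liver (SE 0.12, adjusted p = 0.000757), its value in gastrocnemius was 0.11 (SE 0.07, adjusted p = 0.612), and the difference was 1.80 (SE 0.14, 95% interval 1.48 to 2.11, adjusted p = 0.000954). Its neighbour Ifi27l2a, a paralog whose exons overlap 9.78% of the Ifi27 exon length, rose in both tissues, by 1.70 in liver and 0.72 in gastrocnemius. Fragments were counted without strand, so those in the overlap count for both genes. The difference of Ifi27l2a was 0.98 (SE 0.16, adjusted p = 0.0549; 0.0123 without the animal block).

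Ifi205 (chr1:174011998-174031755, minus strand), a member of the Ifi200 family of interferon-inducible proteins, some of which sense DNA, had effects of opposite sign. In liver Ifi205 stood at 2.05, 1.67 and 2.53 CPM in WT and at 4.91, 6.6 and 5.30 CPM in R135W. In gastrocnemius it stood at 8.80, 8.08 and 6.52 CPM in WT and at 3.72, 5.86 and 4.29 CPM in R135W. In each tissue the genotypes did not overlap, with R135W above WT in liver and below it in muscle. The liver effect was 1.41 (SE 0.22, adjusted p = 0.0163), the gastrocnemius effect -0.76 (SE 0.18, adjusted p = 0.11) and the difference 2.18 (SE 0.27, 95% interval 1.58 to 2.77, adjusted p = 0.0129).

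The promoters of Ifi205, a called interferon-inducible gene, and of Ifit3, which rose in both tissues, are printed, and both hold the motif marked here. They are RefSeq windows of GRCm38.p6, from 250 bases before to 50 bases after the start site, at chr1:174031706-174032005 on the minus strand for Ifi205 and chr19:34583279-34583578 on the plus strand for Ifit3. Capitals mark the core of the interferon-stimulated response element, searched on both strands as GAAA, any 2 bases and GAAA.
Ifi205: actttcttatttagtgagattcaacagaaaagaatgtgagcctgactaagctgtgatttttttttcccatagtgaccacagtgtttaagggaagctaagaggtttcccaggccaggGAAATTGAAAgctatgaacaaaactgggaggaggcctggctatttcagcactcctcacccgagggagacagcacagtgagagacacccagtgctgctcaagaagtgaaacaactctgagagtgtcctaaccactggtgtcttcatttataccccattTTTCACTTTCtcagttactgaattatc
Ifit3: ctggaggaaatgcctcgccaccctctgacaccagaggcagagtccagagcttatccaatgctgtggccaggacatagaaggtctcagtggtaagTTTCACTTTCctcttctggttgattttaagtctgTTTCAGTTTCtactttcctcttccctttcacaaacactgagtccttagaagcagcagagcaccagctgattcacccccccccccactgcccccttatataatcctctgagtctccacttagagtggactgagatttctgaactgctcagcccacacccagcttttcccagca

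Both windows hold 2 matches: in Ifi205 they begin at -134 and 24, and in Ifit3 at -156 and -122, counted from the start site. A promoter was matched by symbol for 9 of the 17 called genes and for 5 of the 8 genes named below as called in both tissues. These genes had 12 and 6 windows, of which 1 of 12 and 1 of 6 held a match, against 3.44% of all 32851 windows. The 2 windows with a match are the 2 printed, so the pair does not stand for the other genes. Irf7 and Ifit2 were among those with a window and no match, and Ifi27, Gbp6 and Gbp10 had no window. A match describes the letters in the window only.

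Gbp6 and Gbp10, large GTPases of the guanylate binding family that act against microbes inside cells, rose in liver alone. Gbp10 (chr5:105215699-105239533, minus strand) stood at 21.7, 44.9 and 26.2 CPM in WT liver and at 61.2, 150.5 and 126 CPM in R135W liver. In gastrocnemius Gbp10 stood at 6.23, 10.7 and 8.71 CPM in WT and 6.08, 7.15 and 6.31 CPM in R135W, so the muscle groups overlapped. Its liver effect was 1.86 (SE 0.36, adjusted p = 0.0296) beside a gastrocnemius value of -0.41 (SE 0.18, adjusted p = 0.431). The difference for Gbp10 was 2.21 (SE 0.27, 95% interval 1.62 to 2.79, adjusted p = 0.0129). R135W animal 5 was the lowest of its group in liver for both genes.

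Gbp6 (chr5:105270702-105293699, minus strand) stood at 24, 36.8 and 21.3 CPM in WT liver and at 49.4, 102 and 94.1 CPM in R135W liver. In gastrocnemius Gbp6 stood at 12.1, 14.9 and 10.2 CPM in WT and at 10.7, 12.6 and 12.6 CPM in R135W. The liver groups of Gbp6 did not overlap, while the muscle groups overlapped. Gbp6 rose by 1.57 in liver (SE 0.29, adjusted p = 0.026) beside -0.07 in gastrocnemius (SE 0.14, adjusted p = 0.903). The difference for Gbp6 was 1.6 (SE 0.21, 95% interval 1.13 to 2.06, adjusted p = 0.0189). Gbp6 and Gbp10 are close paralogs, and their shares of fragments from common sequence depend on the aligner. Without the animal block neither was called (adjusted p = 0.171 for each).

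Other interferon-inducible genes rose in both tissues of the same animals. Irf7 (chr7:141263183-141266424, minus strand), a transcription factor of interferon production and itself interferon-inducible, stood at 47.2, 47.1 and 53.4 CPM in WT liver and 207, 313 and 325 CPM in R135W liver. In gastrocnemius Irf7 stood at 3.20, 3.14 and 5.06 CPM in WT and at 14.5, 26.4 and 27.1 CPM in R135W. The genotypes were apart in both tissues. Irf7 rose by 2.51 in liver and 2.56 in gastrocnemius, and the 95% interval of its difference, -0.44 to 0.33, bounds how far the tissues could be apart.

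The other 7 genes named as called in both tissues with no called difference were Ifi44, Ifit2, Ifit3, Ifi27l2a, Oas2, Lgals3bp and H2-Q8. Ifit3, which binds foreign RNA together with its Ifit partners, rose by 2.32 in liver and 1.71 in gastrocnemius (difference 0.54, 95% interval 0.004 to 1.08). Oas2, a synthase of the 2'-5' oligoadenylates that activate RNase L, rose by 1.23 in liver and 1.59 in gastrocnemius (difference -0.36, 95% interval -0.92 to 0.19). H2-Q8, a class Ib histocompatibility gene with the same counts in every library as its overlapping neighbour H2-Q6, rose by 1.64 in liver and 1.99 in gastrocnemius. Ifi44 rose by 3.07 in liver and 2.09 in gastrocnemius, and its difference of 0.92 had an interval of 0.17 to 1.67 (adjusted p = 0.416). An interval this wide leaves room for a difference as large as some of the called ones. The intervals of Ifi27l2a (0.63 to 1.33), Lgals3bp (0.25 to 0.98) and Ifit2 (0.013 to 0.95) also lay above 0, with a higher effect in liver. Those of Irf7, Oas2 and H2-Q8 spanned 0. The intervals are not adjusted for the number of genes tested.

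**Figure D2:**
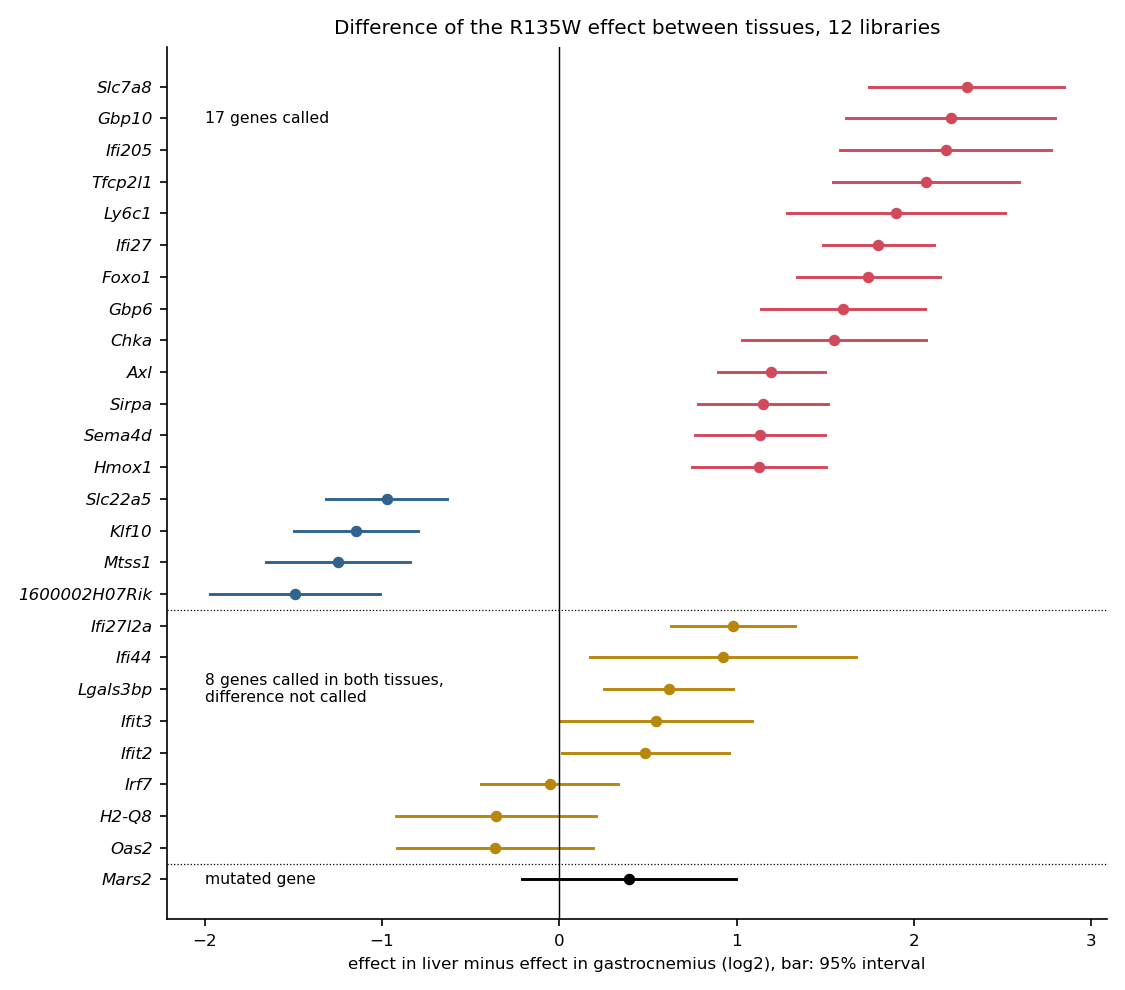
Difference between tissues (log2, horizontal) with its 95% interval for the 17 called genes, the 8 genes called in both tissues without a called difference, and Mars2. The intervals of the called genes lie wholly on 1 side of 0, from Slc7a8 at 2.30 to 1600002H07Rik at -1.49. Those of Irf7, Oas2, H2-Q8 and Mars2 span 0, and those of Ifi44, Ifit2, Ifit3, Ifi27l2a and Lgals3bp lie above 0.

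Ly6c1, Axl, Sirpa, Sema4d and Hmox1 each rose in liver and gave no call in gastrocnemius. They are set side by side here for description only: Ly6c1 is on the inflammatory monocyte list, Hmox1 is on the NRF2 list, and Axl, Sirpa and Sema4d are on none of the lists. Axl (chr7:25756500-25788733, minus strand), a receptor tyrosine kinase for the uptake of dying cells, stood at 24.5, 20.4 and 26.7 CPM in WT liver and 48.5, 53.3 and 52.6 CPM in R135W liver. In gastrocnemius Axl stood at 31.3, 29.6 and 32.9 CPM in WT and 27.4, 32.1 and 29.2 CPM in R135W. The R135W livers were thus above every muscle library, while WT livers were below them. Axl rose by 1.10 in liver (SE 0.13, adjusted p = 0.00693) beside -0.09 in muscle (SE 0.08, adjusted p = 0.725), a difference of 1.20 (SE 0.14, adjusted p = 0.00851).

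Sirpa (chr2:129592839-129632228, plus strand), the myeloid receptor for the CD47 signal that restrains phagocytosis, stood at 16.4, 14.5 and 16.8 CPM in WT liver and at 38.0, 35.3 and 36.0 CPM in R135W liver. Its 6 gastrocnemius libraries all lay between 6.39 and 7.34 CPM. Sirpa rose by 1.19 in liver (SE 0.11, adjusted p = 0.00395) beside 0.03 in muscle (SE 0.11, adjusted p = 0.944), and the difference was 1.15 (SE 0.17, adjusted p = 0.0332). Hmox1 (chr8:75093618-75100593, plus strand), haem oxygenase, which breaks down haem and is strong in macrophages that clear red cells, stood at 13.9, 15.1 and 14.4 CPM in WT liver and 35.4, 27.4 and 30.3 CPM in R135W liver. Its muscle libraries held 3.69, 3.75 and 3.76 CPM in WT and 3.97, 3.48 and 3.56 CPM in R135W. The liver genotypes of both genes were apart, and the muscle genotypes overlapped. Hmox1 rose by 1.10 in liver (SE 0.13, adjusted p = 0.00671) beside -0.04 in muscle (SE 0.13, adjusted p = 0.947), a difference of 1.12 (SE 0.17, adjusted p = 0.0371). It was the 1 called gene of 16 tested NRF2 antioxidant genes.

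Sema4d and Ly6c1 had far higher levels in muscle than in liver, and their effect lay in the tissue with the lower level. Sema4d (chr13:51701248-51793747, minus strand), a membrane semaphorin of lymphocytes and other cells, stood at 1.63, 1.42 and 1.62 CPM in WT liver and 3.38, 3.58 and 3.72 CPM in R135W liver. In gastrocnemius Sema4d stood at 88.9, 86.7 and 90.3 CPM in WT and 85.8, 88.7 and 103 CPM in R135W. It rose by 1.18 in liver (SE 0.19, adjusted p = 0.018) beside 0.05 in muscle (SE 0.07, adjusted p = 0.869), a difference of 1.13 (SE 0.17, adjusted p = 0.0332).

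Ly6c1 (chr15:75044018-75048837, minus strand), a lipid-anchored surface protein of monocytes and of endothelial cells, stood at 0.885, 1.18 and 1.03 CPM in WT liver and 2.79, 5.94 and 2.30 CPM in R135W liver. In gastrocnemius Ly6c1 stood at 40.3, 45.1 and 57.4 CPM in WT and 38.6, 51.3 and 38.5 CPM in R135W. All R135W livers exceeded all WT livers, with animal 7 highest, and the muscle groups overlapped. Ly6c1 rose by 1.81 in liver (SE 0.39, adjusted p = 0.0437) beside -0.17 in muscle (SE 0.15, adjusted p = 0.733), and the difference was 1.90 (SE 0.28, adjusted p = 0.0332; 0.166 without the block). Its close paralog Ly6c2 shares sequence with it, so how fragments were split between them is uncertain.

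Most of the macrophage marker list rose with these genes in liver. The summed level of its 17 markers was 439 to 680 CPM in WT liver and 1109.5 to 1159 CPM in R135W liver, while gastrocnemius held 71.8 to 89.9 CPM in WT against 75.6 to 96.7 CPM with R135W. In liver 12 of 17 markers rose and 0 fell. In gastrocnemius 0 of 10 tested were called by edgeR, with 0 at an unadjusted p under 0.05 and 0 by DESeq2. Mertk stood at 30.47 to 31.76 CPM in WT liver and at 26.92 to 30.47 CPM in R135W liver. Cd163 stood at 11.02 to 21.71 CPM in WT liver and at 9.483 to 16.6 CPM in R135W liver, so the genotypes overlapped. The liver genotypes also overlapped for Mrc1 and Cx3cr1. Mertk, Cd163, Mrc1 and Cx3cr1 were named after their values were seen. The markers of Kupffer cells Clec4f, Vsig4, Marco and Cd5l had no count in 3 to 4 of the 6 gastrocnemius libraries, so no muscle effect could be measured for them. None of the list was called for the difference by edgeR. Of the 10 markers measured in both tissues 7 had a higher liver effect at an unadjusted p under 0.05 and 0 a lower one. Among all 11256 genes measured in both tissues 607 were higher and 473 lower. Over all 17, DESeq2 called 3 and limma-voom 0. C1qc, a chain of complement C1q made by macrophages, stood at 51.3, 33.3 and 54.0 CPM in WT liver and 102, 98.9 and 96.2 CPM in R135W liver. In gastrocnemius C1qc stood at 6.97, 6.93 and 5.6 CPM in WT and 6.12, 6.81 and 5.55 CPM in R135W, and its difference of 1.21 (SE 0.23) had an adjusted p of 0.0901. Emr1, which encodes the macrophage antigen F4/80, rose by 1.53 in liver beside 0.14 in muscle (difference 1.39, SE 0.27, adjusted p = 0.0996). Emr1 was named after its values were seen.

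The summed markers of the other leukocytes were also higher in every R135W liver than in every WT liver. The summed level of the inflammatory monocyte markers was 16.4 to 17.5 CPM in WT liver and 34.1 to 41.2 CPM in R135W liver, and in gastrocnemius 55.1 to 68.6 CPM in WT against 49.2 to 66.8 CPM with R135W, most of it from Ly6c1. Of 8 tested markers 6 rose in liver, beside 2.76% of all tested genes. In gastrocnemius 0 of 6 were called (0 at an unadjusted p under 0.05, 0 by DESeq2). Neutrophil markers summed to 5.31 to 8.5 CPM in WT liver and to 11.2 to 18.5 CPM in R135W liver, T and NK cell markers to 9.55 to 11.4 CPM and 15.9 to 18 CPM, and B and plasma cell markers to 6.66 to 9.36 CPM and 11.2 to 15.9 CPM. In gastrocnemius each of these 3 sums stayed at or under 2.35 CPM, so none of their members was measured in both tissues. Of single markers, 0 of 5 neutrophil, 2 of 12 T and NK cell and 0 of 6 B and plasma cell markers rose in liver by edgeR. At an unadjusted p under 0.05 there were 4, 7 and 4. These unadjusted counts have no share over all genes beside them and are description only. DESeq2 called 3, 2 and 1 of the markers, and 781 genes in liver in all. The liver genotypes overlapped for some single markers, Cd79a and Klrb1c among them. In bulk RNA, more cells of a type and more RNA per cell cannot be told apart. The part of any of these cells in the genes above was not tested.

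**Figure D3:**
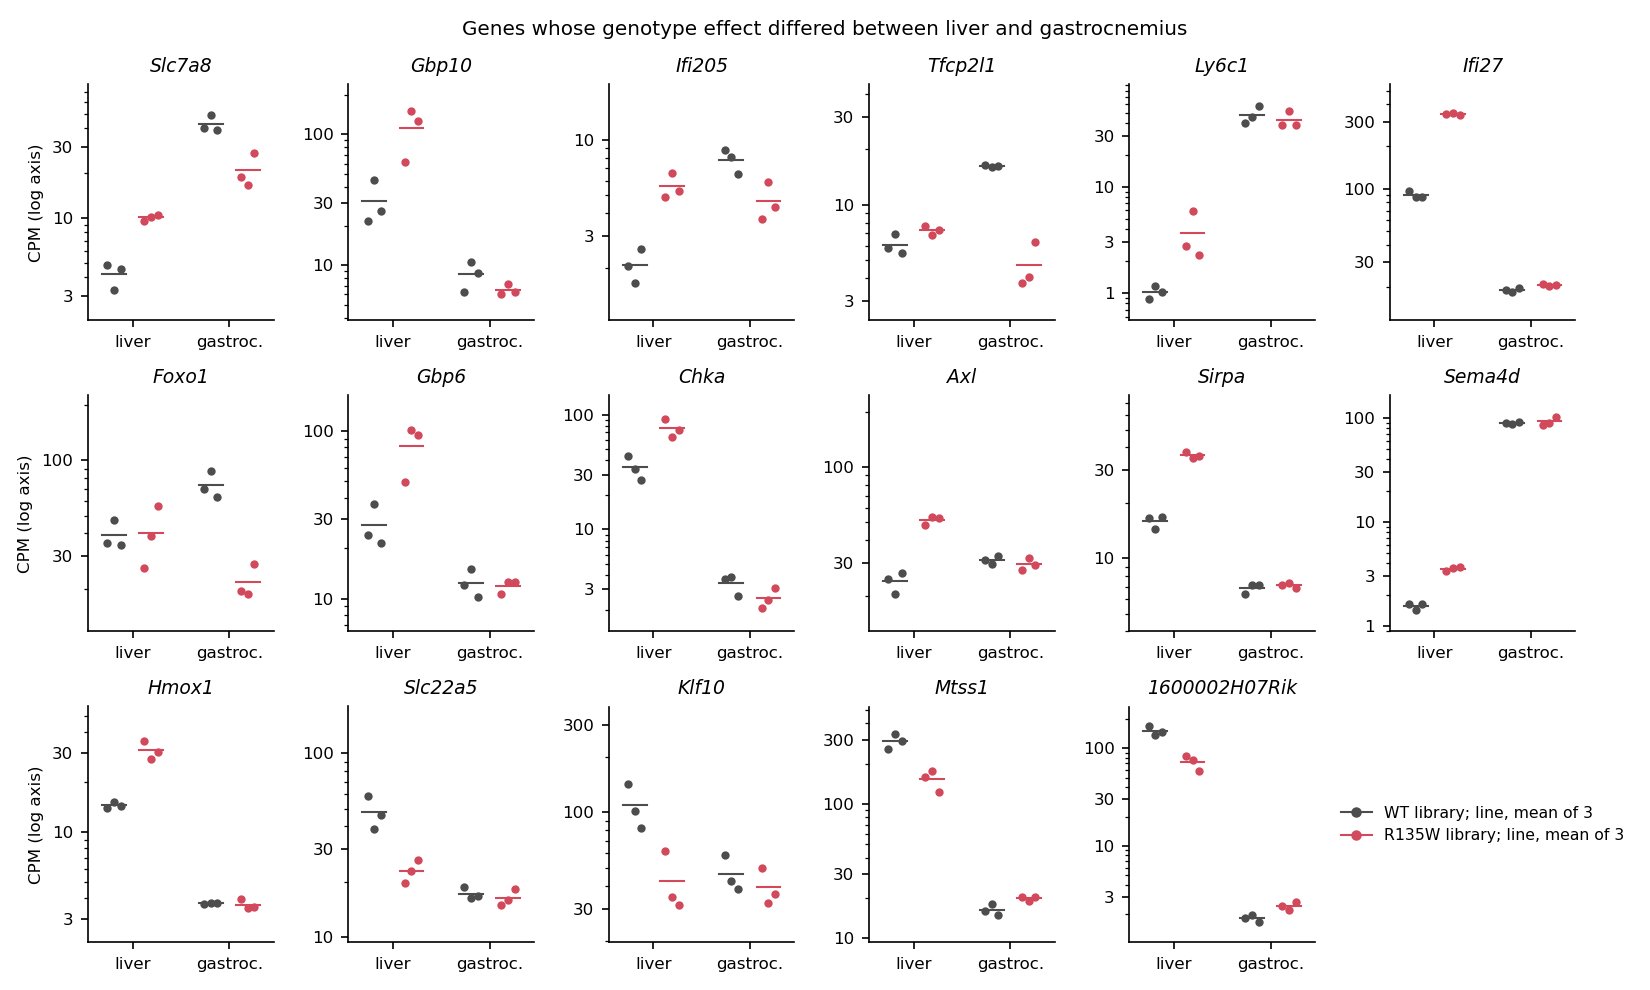
CPM on a log axis for the 17 called genes in each of the 12 libraries, WT grey and R135W red, with lines at group means of 3. In 14 panels the genotypes are called apart in liver alone, and for Foxo1 and Tfcp2l1 they are called apart in gastrocnemius alone.

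Slc7a8 (chr14:54722215-54781886, minus strand) was the gene called in opposite directions in the 2 tissues, and it had the highest difference of the 17. It encodes LAT2, an exchanger of neutral amino acids at the cell membrane. In liver Slc7a8 stood at 4.85, 3.28 and 4.55 CPM in WT and at 9.60, 10.1 and 10.5 CPM in R135W. In gastrocnemius it stood at 40.1, 49.0 and 38.7 CPM in WT and at 18.7, 16.5 and 27.3 CPM in R135W. R135W was above every WT value in liver and below every WT value in muscle. Slc7a8 rose by 1.24 in liver (SE 0.18, adjusted p = 0.0119) and fell by 1.04 in gastrocnemius (SE 0.16, adjusted p = 0.0289). The difference was 2.30 (SE 0.25, 95% interval 1.75 to 2.85, adjusted p = 0.00812).

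Chka (chr19:3851773-3894369, plus strand), choline kinase alpha, which starts phosphatidylcholine synthesis from choline, rose in liver alone. It stood at 43.8, 33.9 and 26.8 CPM in WT liver and 91.9, 64.1 and 73.4 CPM in R135W liver, with the groups apart. In gastrocnemius Chka stood at 3.69, 3.86 and 2.61 CPM in WT and 2.07, 2.42 and 3.1 CPM in R135W, with the groups overlapping. The liver effect was 1.13 (SE 0.20, adjusted p = 0.0229), the muscle value -0.43 (SE 0.20, adjusted p = 0.453) and the difference 1.55 (SE 0.24, adjusted p = 0.0371; 0.0973 without the block).

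Foxo1 and Tfcp2l1 fell in gastrocnemius and gave no call in liver. Foxo1 (chr3:52268337-52350109, plus strand) encodes the transcription factor that insulin signalling holds inactive, a driver of gluconeogenic genes in liver and of protein breakdown genes in muscle. In gastrocnemius Foxo1 stood at 69.8, 87.3 and 62.8 CPM in WT and at 19.6, 18.8 and 27.3 CPM in R135W. In liver it stood at 35.6, 47.2 and 34.7 CPM in WT and at 25.8, 38.8 and 56.6 CPM in R135W. The muscle groups were wide apart, and the R135W livers spread on both sides of the WT livers. Foxo1 fell by 1.76 in gastrocnemius (SE 0.15, adjusted p = 0.00586) beside 0.04 in liver (SE 0.26, adjusted p = 0.953). The difference was 1.74 (SE 0.18, 95% interval 1.34 to 2.14, adjusted p = 0.00812; 0.113 without the block).

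Tfcp2l1 (chr1:118627945-118685168, plus strand), a grainyhead-related transcription factor known from kidney and embryonic stem cells, stood at 16.4, 16 and 16.2 CPM in WT gastrocnemius and 3.76, 4.05 and 6.28 CPM in R135W gastrocnemius. In liver Tfcp2l1 stood at 5.82, 6.96 and 5.46 CPM in WT and 7.66, 6.84 and 7.26 CPM in R135W. The WT muscles were nearly equal, and each exceeded every R135W muscle, whereas the liver groups overlapped. Tfcp2l1 fell by 1.80 in gastrocnemius (SE 0.16, adjusted p = 0.00586) beside 0.25 in liver (SE 0.15, adjusted p = 0.434), a difference of 2.07 (SE 0.24, 95% interval 1.54 to 2.59, adjusted p = 0.00851).

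Of 23 tested genes of a FOXO, glucocorticoid and muscle atrophy list, Foxo1 was the 1 called for the difference. In gastrocnemius 4 of 22 fell, beside 0.333% of all tested genes. The other 3 that fell there were Fkbp5, Pik3r1 and Zbtb16, named after their values were seen. Fkbp5, a chaperone induced by glucocorticoids, stood at 93.0, 101 and 132 CPM in WT gastrocnemius and 24.5, 35.9 and 47.4 CPM in R135W gastrocnemius. It fell by 1.61 there beside -0.95 in liver (adjusted p = 0.181), with a difference of 0.60 (SE 0.16, adjusted p = 0.227). Pik3r1, a regulatory subunit of phosphoinositide 3-kinase, fell by 0.81 in gastrocnemius beside -0.34 in liver, with a difference of 0.46 (adjusted p = 0.512). Zbtb16, a zinc finger transcription factor, had nearly equal values, -1.03 in gastrocnemius, where it was called, and -1.0 in liver (difference -0.10, SE 0.37, of either sign across alternative fits). None of the list was called in liver by edgeR, with 5 at an unadjusted p under 0.05 and 3 called by DESeq2.

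Of 21 tested insulin and growth factor signalling genes 0 were called for the difference by edgeR, DESeq2 or limma-voom. Of the 17 measured in both tissues 2 were higher in liver at an unadjusted p under 0.05 and 4 lower. Among all 11256 genes measured in both tissues these counts were 607 and 473. Irs1, the main adaptor of the insulin receptor in muscle, stood at 91.2, 79.4 and 91.4 CPM in WT gastrocnemius and 168, 156 and 139.6 CPM in R135W gastrocnemius. In liver Irs1 stood at 28.7, 33.9 and 31.1 CPM in WT and 38.2, 33.0 and 32.2 CPM in R135W. The muscle groups were apart, with R135W higher, and the liver groups overlapped. Irs1 rose by 0.81 in muscle (adjusted p = 0.0102) beside 0.14 in liver, and its difference of -0.68 (SE 0.15) had an adjusted p of 0.152.

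The 4 genes with a lower effect in liver all fell there. Mtss1 (chr15:58941234-59082026, minus strand), a membrane-bending actin regulator, stood at 258, 333 and 295 CPM in WT liver and 159, 178 and 122 CPM in R135W liver. In gastrocnemius Mtss1 stood at 16, 17.9 and 14.9 CPM in WT and 20.3, 19 and 20.3 CPM in R135W. Both tissues kept the genotypes apart, with R135W lower in liver and higher in muscle. Mtss1 fell by 0.95 in liver (SE 0.17, adjusted p = 0.0238) beside 0.27 in gastrocnemius (SE 0.09, adjusted p = 0.239), a difference of -1.25 (SE 0.19, 95% interval -1.65 to -0.84, adjusted p = 0.0332).

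Klf10 (chr15:38291464-38300711, minus strand), a Kruppel-like repressor induced by TGF-beta, stood at 143, 102 and 82.4 CPM in WT liver and 61.6, 34.5 and 31.4 CPM in R135W liver. In gastrocnemius Klf10 stood at 58.7, 42.3 and 38.3 CPM in WT and 49.6, 32 and 36.0 CPM in R135W. The liver groups were apart and the muscle groups overlapped. In both tissues the highest value of each genotype came from animals 6 and 5. Klf10 fell by 1.37 in liver (SE 0.29, adjusted p = 0.039) beside -0.25 in muscle (SE 0.18, adjusted p = 0.654), with a difference of -1.15 (SE 0.16, adjusted p = 0.0275; 0.403 without the block).

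Slc22a5 (chr11:53864542-53891703, minus strand), the carnitine transporter that supplies fatty acid oxidation, stood at 58.6, 38.5 and 46.4 CPM in WT liver and 19.6, 22.7 and 26.1 CPM in R135W liver. Its gastrocnemius libraries held 18.7, 16.3 and 16.7 CPM in WT and 14.9, 15.8 and 18.1 CPM in R135W. Slc22a5 fell by 1.08 in liver, to levels near those of muscle (SE 0.18, adjusted p = 0.0182), beside -0.09 in gastrocnemius (SE 0.09, adjusted p = 0.775). The difference was -0.97 (SE 0.15, adjusted p = 0.0489; 0.107 without the block), the nearest of the 17 to the threshold.

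The transcript 1600002H07Rik (chr17:24215056-24220769, minus strand), listed in RefSeq as Tedc2, a gene of centriole assembly, was named after its values were seen. It stood at 167, 138 and 145 CPM in WT liver and at 82.4, 75.2 and 59.2 CPM in R135W liver. In gastrocnemius 1600002H07Rik stood at 1.83, 1.98 and 1.65 CPM in WT and 2.45, 2.23 and 2.68 CPM in R135W. The genotypes were apart in both tissues and in opposite order. It fell by 1.06 in liver (SE 0.15, adjusted p = 0.013) beside 0.42 in muscle (SE 0.16, adjusted p = 0.348), and the difference was -1.49 (SE 0.22, adjusted p = 0.0332).

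By lists of genes, the interferon response was present in both tissues and higher in liver for most of its members, without most single differences being called. Over all tested genes the median difference was -0.01. In liver 2.76% of all tested genes rose and 0.524% fell, and in gastrocnemius 0.542% rose and 0.333% fell. DESeq2 called 66 of 11529 genes for the difference, 781 in liver and 274 in gastrocnemius. List counts at an unadjusted p within 1 tissue have no share over all genes beside them and are description only. Of 55 tested interferon-stimulated genes 43 rose in liver (median 1.26) and 22 of 52 rose in gastrocnemius (median 0.84). Their median difference was 0.45. Ifi27 was the 1 member called by edgeR. Among the 46 members measured in both tissues, 20 were higher in liver at an unadjusted p under 0.05 and 1 lower, and 36 had a positive difference, beside 607 higher, 473 lower and 5447 positive among all 11256 such genes. Apol9b was the 1 lower, and Apol9a, not measured in muscle, was lower at that threshold too; both were named after their values were seen. Apol9a, close in sequence to Apol9b, had 0 to 0.115 CPM in WT gastrocnemius and 0.591 to 1.11 CPM in R135W gastrocnemius, so its fitted difference of -1.89 rests on very few muscle counts.

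Guanylate binding proteins and immunity related GTPases had a median difference of 0.64 over 22 tested genes. Of these 2 were called (0.110% of all tested genes). An unadjusted p under 0.05 was reached by 11 (9.23% of all), 10 of them higher in liver. In liver 11 of 22 rose (median 1.06), and in gastrocnemius 1 of 19 rose (median 0.66), namely Gbp3 by 1.20 beside 1.98 in liver. Nucleic acid sensing genes rose in liver for 10 of 25 (median 0.63) and in gastrocnemius for 1 of 24 (median 0.09), namely Ifih1, the RNA sensor MDA5, by 0.72. Its liver value of 1.04 had an adjusted p of 0.0554 and its difference was 0.32 (adjusted p = 0.741). Gbp3 and Ifih1 were named after their values were seen. Of class I antigen presentation genes 12 of 20 rose in liver (median 0.89) and 9 of 20 in gastrocnemius (median 0.62), with a median difference of 0.21. None of the class I genes was called for the difference by edgeR, DESeq2 or limma-voom. Of these 20 genes 5 had an unadjusted p under 0.05, beside 9.23% of all tested genes. In the nucleic acid sensing list Ifi205 was the 1 member called for the difference by edgeR, and 7 of 25 had an unadjusted p under 0.05.

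Lists of NF-kB and cytokine genes and of cell cycle genes had called members in liver alone. Relb, an NF-kB subunit, stood at 3.03, 2.25 and 2.21 CPM in WT liver and 5.80, 5.47 and 5.54 CPM in R135W liver, and rose by 1.16 there beside 0.32 in muscle (difference 0.85, adjusted p = 0.223). Nfkb2, Icam1 and Ccl2 were the other 3 of 15 that rose in liver (2.76% of all genes rose), by 0.72, 0.74 and 2.03. Mcm2, a subunit of the replicative helicase, rose by 1.15 in liver beside -0.04 in muscle (difference 1.18, SE 0.24, adjusted p = 0.106). Mcm5, Mcm6 and Cdc20 were the other 3 of 20 cell cycle genes that rose in liver, by 1.95, 1.07 and 3.05, from levels of 5.64 CPM or less in WT livers. In gastrocnemius 0 of 10 NF-kB genes and 0 of 13 cell cycle genes were called by edgeR, with 3 and 2 at an unadjusted p under 0.05 and 0 and 1 called by DESeq2. Icam1, Ccl2, Mcm5 and Mcm6 were named after their values were seen.

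Clock genes had a median difference of -0.60 over 19 genes. None was called by edgeR or limma-voom. An unadjusted p under 0.05 was reached by 11 (9.23% of all tested genes), 3 higher and 8 lower in liver (5.17% and 4.05% of all). DESeq2 called 5, beside 66 of 11529 over all genes. In liver Arntl and Npas2, of the positive limb of the clock, rose by 1.4 and 2.01, and Tef, Hlf and Bhlhe41, which clock factors drive, fell by 1.18, 0.84 and 1.83. In gastrocnemius 0 of 19 were called by edgeR or DESeq2, with 7 at an unadjusted p under 0.05. Bhlhe41 stood at 0.699, 1.42 and 1.62 CPM in WT liver and 0.372, 0.424 and 0.272 CPM in R135W liver, beside 32.3, 26.9 and 30.8 CPM in WT and 46.1, 31 and 44.8 CPM in R135W gastrocnemius. Its difference was -2.29 (SE 0.40, adjusted p = 0.0751; 0.0476 without the block). The labels give no time of day, so the hour of collection and genotype cannot be told apart. Arntl, Npas2 and Hlf were named after their values were seen.

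Fatty acid oxidation genes gave calls in liver, and no gene of the lipid and mitochondrial lists described here was called for the difference. In liver 4 of 32 fatty acid oxidation and PPARA target genes fell by edgeR (0.524% of all genes fell), beside 17 at an unadjusted p under 0.05 and 11 called by DESeq2. In gastrocnemius 0 of 29 were called by edgeR or DESeq2, with 7 at an unadjusted p under 0.05. Among the 4 that fell in liver were Ppara, the receptor that drives the pathway, and the acyl-CoA thioesterases Acot3 and Acot4, named after their values were seen. Ppara stood at 294, 324 and 365 CPM in WT liver and 185, 223 and 221 CPM in R135W liver, with the groups apart, and fell by 0.65. It stood at 37.3, 59.6 and 50.9 CPM in WT and 39.1, 34.3 and 37.4 CPM in R135W gastrocnemius, where the groups overlapped, and its difference was -0.25 (SE 0.19, adjusted p = 0.748). Acot3 and Acot4 fell by 1.4 and 1.0 in liver. Acot3 had no count in any gastrocnemius library, and Acot4 stood at 0.166 CPM or less there, so their differences rest on few or no muscle counts.

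Cholesterol synthesis genes had a median of -0.35 in liver and 0.03 in gastrocnemius and a median difference of -0.40 over 23 genes. At an unadjusted p under 0.05, 6 were lower in liver and 0 higher, beside 4.05% and 5.17% of all tested genes. In liver 1 of 23 fell by edgeR, Hsd17b7 by 0.84, named after its values were seen, beside 8 at an unadjusted p under 0.05 and 5 called by DESeq2. Nsdhl, a sterol dehydrogenase, stood at 61.2, 79.6 and 93.6 CPM in WT liver and 38.7, 60.2 and 36.0 CPM in R135W liver, and its difference of -0.99 (SE 0.23) had an adjusted p of 0.158. Fatty acid oxidation genes had medians of -0.44 in liver and -0.09 in gastrocnemius. Of the 27 measured in both tissues 7 were lower in liver at an unadjusted p under 0.05 and 0 higher. Among all 11256 such genes 473 were lower and 607 higher. No gene of either list was called for the difference by edgeR, DESeq2 or limma-voom. Nuclear complex I genes had medians of -0.10 and -0.03 in liver and gastrocnemius and mitochondrial aminoacyl tRNA synthetases 0.06 and -0.08, with 0 of 36 and 0 of 17 at an unadjusted p under 0.05 for the difference and 0 called by edgeR, DESeq2 or limma-voom. Integrated stress response targets, often raised when mitochondrial translation fails, had a median difference of 0.18 over 27 genes, with 0 called by any of these tools. Of the 23 measured in both tissues 2 were higher in liver at an unadjusted p under 0.05, beside 607 of all 11256 such genes. Nupr1, a stress-induced chromatin protein of that list, ranged from 0.870 to 1.96 CPM in WT liver and from 2.15 to 14.6 CPM in R135W liver, so its difference of 2.15 had an SE of 0.86 (adjusted p = 0.519).

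Vascular signalling genes gave calls in muscle alone. Kdr, the VEGF receptor of endothelial cells, stood at 30.9, 27.7 and 27.3 CPM in WT gastrocnemius and 52.6, 45.1 and 50.2 CPM in R135W gastrocnemius. In liver Kdr stood at 46.9, 31.8 and 41.9 CPM in WT and 53.4, 35.5 and 45.2 CPM in R135W. The muscle groups were apart and the liver groups overlapped. Kdr rose by 0.77 in muscle (adjusted p = 0.00918) beside 0.15 in liver, and its difference of -0.63 (SE 0.16) had an adjusted p of 0.207. Pdgfb and Nrp1 were the other 2 of 20 that rose in muscle, by 0.61 and 0.38, and were named after their values were seen. Over all tested genes 0.542% rose in muscle. The difference of Pdgfb was 0.20 (SE 0.36) and that of Nrp1 -0.44 (SE 0.20). In the fit without animal 5 the difference of Pdgfb was -0.13. In liver 0 of 18 were called by edgeR or DESeq2, with 2 at an unadjusted p under 0.05. The summed level of 11 endothelial markers was 314 to 345.5 CPM in WT against 388 to 419 CPM with R135W gastrocnemius, and in liver 237 to 378 CPM in WT against 293 to 384 CPM with R135W. Kdr is itself 1 of the 11 markers, so the sum is not independent of it. The part of this sum in the muscle values was not tested.

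**Figure D4:**
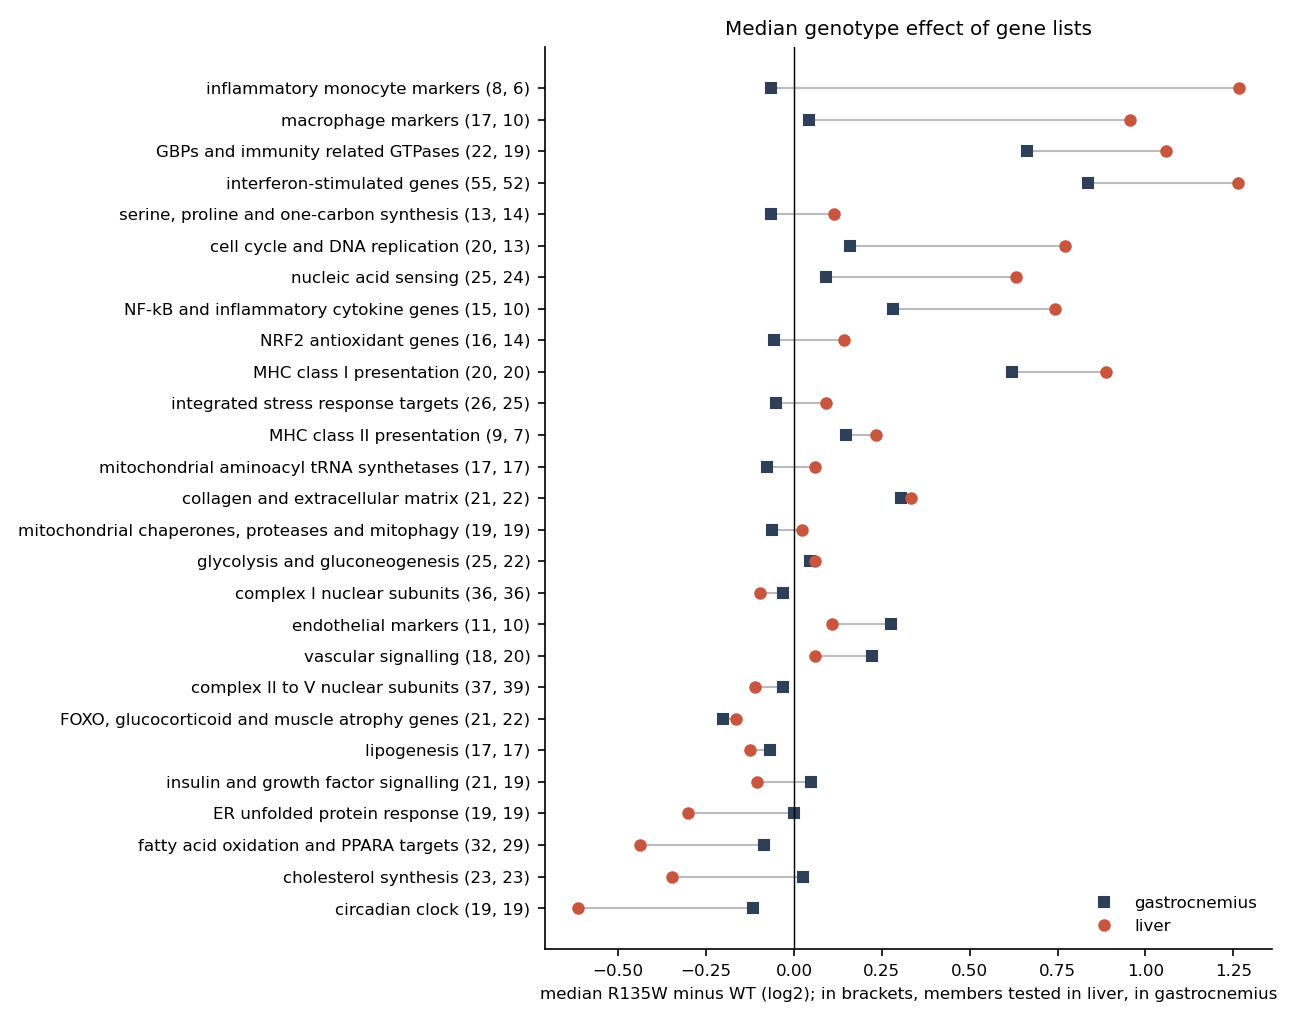
Median R135W effect (log2) over the tested members of each list in liver (circles) and gastrocnemius (squares), ordered by the median difference between tissues. Interferon-stimulated genes lie at 1.26 and 0.84, macrophage markers at 0.96 and 0.04, and clock genes at -0.61 and -0.12.

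The sign of the difference held for each of the 17 genes under every alternative fit, but the call did so for none. Ifi27 was called in 6 of 6 fits that left out 1 animal and in 8 of 9 other alternatives, failing at a required minimum change of 2-fold. Slc7a8 and Foxo1 were called in 5 of 6 such fits, and Ifi205, Tfcp2l1 and Axl in 4 of 6. Gbp10, Gbp6, Mtss1 and Klf10 were called in 3 of 6, Chka and Sirpa in 2 of 6, and Ly6c1, Sema4d and 1600002H07Rik in 1 of 6. Slc22a5 and Hmox1 were called in 0 of 6 by edgeR. The count of called genes was 17 without animal 6, 9 without animal 5, 9 without animal 7, 28 without animal 12, 4 without animal 9 and 2 without animal 8. Of the 17, Ifi27 was the 1 still called without animal 8, and Ifi27, Slc7a8, Foxo1 and Ifi205 without animal 9. Without the gastrocnemius library of animal 12, which needs the fit without the block, 9 genes were called, of which 7 were among the 17. The counts within a tissue, 457 and 121, moved too: in liver 84 genes were called without animal 9, 104 without animal 8, 114 without animal 7, 263 without animal 12, 266 without animal 5 and 285 without animal 6. In gastrocnemius 3 genes were called without animal 8, 9 without animal 9, 21 without animal 7, 38 without animal 6, 47 without animal 12 and 106 without animal 5.

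**Figure D5:**
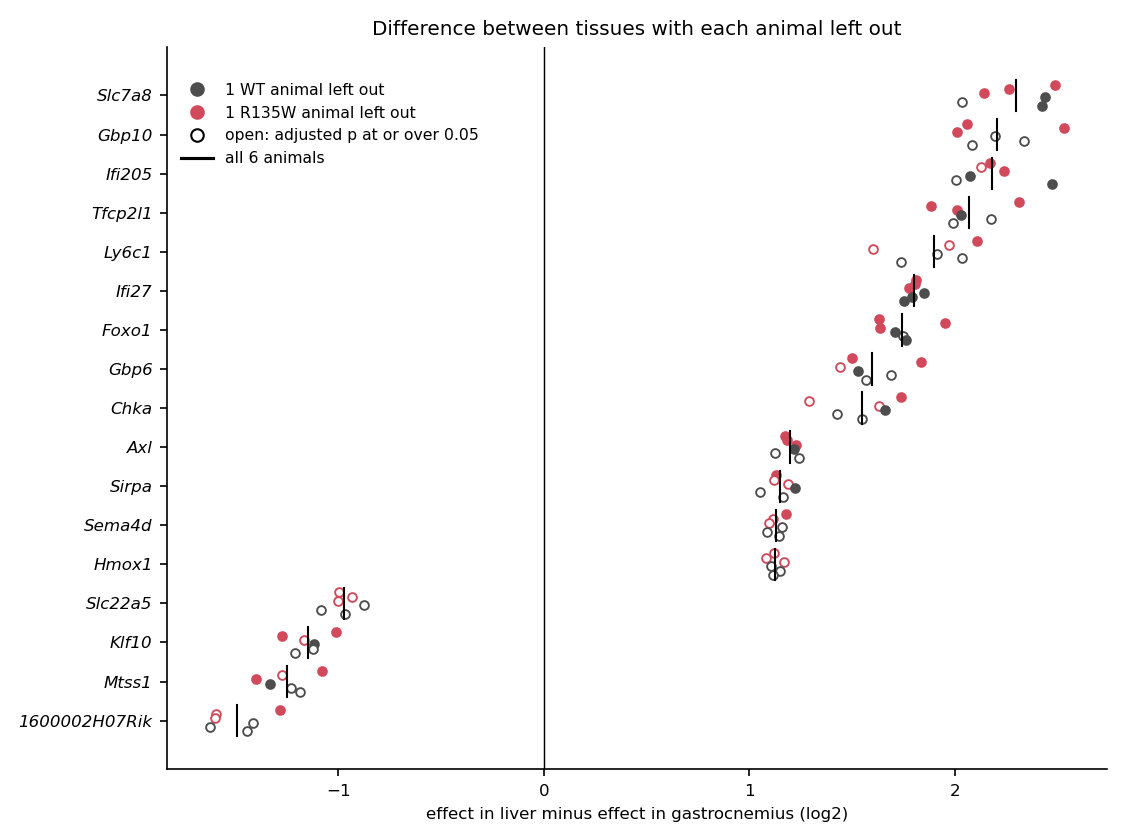
Difference between tissues (log2, horizontal) of the 17 called genes with each animal left out in turn; filled points have an adjusted p under 0.05 and the black bar marks the fit of all 6 animals. All points of a gene stay on 1 side of 0, with Ifi27 between 1.75 and 1.85 and Slc7a8 between 2.04 and 2.48.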

How the data were processed

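Poly(A) RNA from 12 libraries was sequenced in pairs. Per the file headers, the authors counted fragments per gene with featureCounts 1.5.2 over exons grouped by symbol, on UCSC mm10 genes, for primary alignments, without strand and with fragments in overlapping genes counted for each. STAR 2.4.0 is named in the submitters' processing notes. The deposited raw counts cover 24062 genes. Genes of the mitochondrial DNA were not analysed here. Counts were tested with edgeR 4.0.16 in R 4.3.3 after TMM scaling and filterByExpr: a quasi-likelihood model of all 12 libraries with animal as block, tissue and tissue by genotype, and a model of 6 libraries within each tissue. DESeq2 1.42.0 and limma 3.58.1 (voom) were alternatives. Standard errors were taken from the log2 change and its F statistic. Scripts were tested on simulated data.

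Libraries with the same number were taken as 1 animal because they share age and genotype. Across 11256 genes, the correlation of their deviations from the group means was 0.00461 to 0.0864 for the same number and -0.105 to 0.0815 for different numbers. These ranges overlap, so they do not settle the pairing. Members and lists were chosen with earlier results of these data known. Text names Mars2, up to 12 called genes per direction by size of the difference with non-overlapping animals and conventional symbols, 8 genes called in both tissues without a called difference, and set list members. Others are marked as named after their values were seen. 1 member of the fatty acid oxidation list is not reported here.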

Additional observations from a re-analysis of the deposited data

Results flagged for a closer look

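The effect of R135W differed between liver and gastrocnemius for 17 genes by the test of the difference itself (edgeR, adjusted p under 0.05). The difference in log2, liver minus gastrocnemius, was 2.30 for Slc7a8, 2.21 for Gbp10, 2.18 for Ifi205, 2.07 for Tfcp2l1 and 1.90 for Ly6c1. It was 1.80 for Ifi27, 1.74 for Foxo1, 1.6 for Gbp6 and 1.55 for Chka. For Axl, Sirpa, Sema4d and Hmox1 it was 1.20, 1.15, 1.13 and 1.12. It was -1.49 for 1600002H07Rik, -1.25 for Mtss1, -1.15 for Klf10 and -0.97 for Slc22a5.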

How the results depend on the processing

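Of the choices that move the count of 17 called differences, DESeq2 gave 66, no filter on low counts 36, a stricter filter 27, an age by tissue term 10 and a minimum change of 2-fold 0 by edgeR (164 at an unadjusted p under 0.05). Without the replicate block 27 genes were called, of which 10 were among the 17. Of the genes measured in both tissues these settings called 63, 35, 27, 10, 0 and, without the block, 26. Leaving out 1 animal gave 2 to 28 calls, and 2 to 26 among genes measured in both tissues. Without the block and without the gastrocnemius library of animal 12, an alternative chosen after seeing the data, 9 were called on either count. Within liver DESeq2 called 781 and leaving out 1 library 84 to 285, and within gastrocnemius DESeq2 called 274 and leaving out 1 library 3 to 106. With unadjusted p-values within each tissue, 5 of the 17 moved in opposite directions in both instead of 1. The difference of Irf7 was -0.24 to 0.033 when 1 animal was left out and 0.085 without the block and that library. Zbtb16 gave 0.021 without the block, 0.016 without the block and that library, and -0.47 to 0.16 when 1 animal was left out. Pdgfb gave -0.13 to 0.55 when 1 animal was left out. Acot4 gave -0.45 to 0.69 when 1 animal was left out and 0.58 without the block and that library, from few muscle counts. The cause of these changes was not tested. Of the other planned values for single genes, 1048 kept their direction and side of the threshold, 95 fell short of it and 18 came to pass it. With 3 animals of each genotype and a median SE of 0.191, small differences between tissues are not detectable.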
